A study of Mus musculus with 12 samples.

Results

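The 10 genes described here encode the elastic fibre and its microfibril scaffold, and they were chosen by name as the rows of the expression table whose mouse symbol is Eln, Fbn1, Fbn2, Fbln2, Fbln5, Efemp2, Mfap2, Mfap4, Mfap5 or Emilin1. All 10 were found among the 55092 features listed. RNA-Seq of messenger RNA was performed on abdominal aortas of 12 male mice, 3 in each of 4 groups. CFS denotes CCN2fl/fl mice given saline, CSS denotes CCN2SMCΔ mice given saline, CFA denotes CCN2fl/fl mice given Ang II, and CSA denotes CCN2SMCΔ mice given Ang II, each for 7 days by mini-osmotic pump. Ang II (angiotensin II, a pressor peptide used to induce aortic aneurysm) was infused at 500 ng/kg/min. All 4 groups carried floxed Ccn2, which encodes the matricellular protein CCN2, and all received 5 doses of tamoxifen at 8 weeks of age, followed by a washout of 2 weeks. CCN2SMCΔ mice also carried the Myh11-Cre-ERT2 transgene, in which the Myh11 promoter drives a tamoxifen-dependent Cre in smooth muscle cells (SMC), and the floxed controls lacked it. Ccn2 can therefore still be transcribed by the other cells of the aorta in CCN2SMCΔ mice. The groups allow the effect of genotype to be asked under saline and under Ang II, and the effect of Ang II in each genotype.

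Elastic fibres give the wall of a large artery its recoil. Elastin, secreted as soluble tropoelastin and crosslinked by lysyl oxidases, forms the core of the fibre. Fibrillins polymerise into the microfibrils around it, the microfibril-associated glycoproteins MAGP-1 (Mfap2) and MAGP-2 (Mfap5) bind to fibrillin, and the fibulins and emilin-1 join elastin to the scaffold and aid its assembly. In the aorta most elastin is made by SMC early in life, and loss of elastin, fibulin-4 (Efemp2), fibulin-5 (Fbln5) or normal fibrillin-1 disturbs the elastic lamellae in mice.

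On GRCm38 the elastin gene Eln lies at chr5:134702593-134747323 on the minus strand. The fibrillin gene Fbn1 lies at chr2:125300594-125507993 (minus strand). The fibulin genes are Fbln2 at chr6:91212455-91272540 (plus strand), Fbln5 at chr12:101746565-101819055 (minus strand) and Efemp2 at chr19:5473954-5482517 (plus strand). The microfibril-associated genes are Mfap2 at chr4:141010418-141015984, Mfap4 at chr11:61485431-61488900 and Mfap5 at chr6:122505845-122529290, all on the plus strand. Emilin1 lies at chr5:30913402-30921277 on the plus strand. These genes and Fbn2, placed below, are annotated as protein-coding. Of the exonic bases of Fbn1, 20.1% overlap the antisense gene Gm9913, and since the library kit does not mark strand, reads of the overlap cannot be told apart. The overlap with another gene was at most 4.63% of exonic bases in the other 9.

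Promoter sequences of RefSeq (GRCm38.p6) were matched for 6 of the 10 genes: Efemp2, Emilin1, Fbln2, Fbln5, Fbn1 and Mfap2. Shown are the 250 bases before a transcription start of Fbln5 and Efemp2, which encode related fibulins with different values under Ang II, and of Mfap2, the one gene of the 6 with a TEAD motif in a window. Each is read 5′ to 3′ on the strand of its gene, and capitals mark matches to a GC box (GGGCGG, or CCGCCC on the other strand) or to the TEAD motif (GGAATG, or CATTCC on the other strand).
Fbln5, chr12:101819120-101819369, minus strand: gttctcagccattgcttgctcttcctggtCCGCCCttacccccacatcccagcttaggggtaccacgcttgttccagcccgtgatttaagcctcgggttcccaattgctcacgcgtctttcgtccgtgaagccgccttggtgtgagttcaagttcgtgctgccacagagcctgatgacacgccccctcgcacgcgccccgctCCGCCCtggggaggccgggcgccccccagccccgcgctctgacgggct
Efemp2, chr19:5473696-5473945, plus strand: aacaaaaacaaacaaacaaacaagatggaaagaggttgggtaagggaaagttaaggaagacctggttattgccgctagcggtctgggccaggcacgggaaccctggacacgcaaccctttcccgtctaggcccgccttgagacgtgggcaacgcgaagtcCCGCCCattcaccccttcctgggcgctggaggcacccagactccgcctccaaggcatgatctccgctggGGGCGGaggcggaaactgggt
Mfap2, chr4:141010174-141010423, plus strand: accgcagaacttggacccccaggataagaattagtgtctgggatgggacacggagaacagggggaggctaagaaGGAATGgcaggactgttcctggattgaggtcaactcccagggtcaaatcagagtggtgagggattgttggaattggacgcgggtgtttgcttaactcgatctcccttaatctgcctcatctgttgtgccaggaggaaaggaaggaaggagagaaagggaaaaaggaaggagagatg
The Fbln5 and Efemp2 stretches each hold 2 matches to the GC box, and the Mfap2 stretch holds 1 match to the TEAD motif. These counts hold for the starts shown. RefSeq gives 2 further starts for Efemp2, whose windows of 300 bases held 5 and 7 GC boxes, 1 for Fbln5, whose window held 0, and 1 for Mfap2, whose window held 2 GC boxes and 0 TEAD motifs. Over 32851 promoter windows of 300 bases (250 before and 50 after the start), 35.7% held a GC box and 14.7% held the TEAD motif on either strand. No window of the 6 genes held the letters of an AP-1 site (TGANTCA, present in 7.81% of windows) or a CArG box (present in 1.63%). A match is a description of the letters, and binding was not measured.

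The deposited FPKM, the fragments of a gene scaled to its length and to the library, were analysed as log2(FPKM + 0.1) with limma over all 12 libraries, and a gene is said to have passed the test at a Benjamini-Hochberg adjusted p under 0.05 over 14676 features, those at 1 FPKM or more in 3 or more libraries. Fold changes below are differences on this log2 scale ± SE, and replicate levels are FPKM as mean ± SD with n = 3. Between 14558580 and 23107811 fragments per library could be recovered from the values. The library size that the FPKM imply was 1.05 to 1.11 times the recovered fragments in the CSA mice and 0.928 to 1.01 times in the other 9, so the FPKM carry a scaling between libraries that is not given in the sources used here. With FPKM scaled to the recovered fragments instead, the median difference of all features between CSA and CFA moved from −0.04 to 0.11, and no call of the 9 genes that are tested below changed. CSA mouse 03 had the fewest fragments and stood apart from its group. Its root mean square distance from CSA mice 01 and 02 was 1.21 and 1.199 on the log2 scale, against 0.505 between those 2 mice and 0.586 to 0.743 between replicates of the other groups. Its difference from them also followed GC content, with a median of 0.56 in the lowest and −0.97 in the highest of 4 equal bins of genes by GC content. The highest bin held 4 of the 10 genes. Of these, Eln (58.8% GC), Mfap2 (59.6%) and Emilin1 (61.1%) differed in CSA mouse 03 from CSA mice 01 and 02 by −1.44, −1.33 and −1.94, and Fbln2 (57.0%) by −0.44, which is closer to 0 than the median of the bin. Fbln5 (46.9% GC) differed there by −0.04 and Mfap5 (48.2% GC) by 0.39. For the 10 genes, a difference that involves CSA is therefore also given without CSA mouse 03 where this changed a call or a direction or moved the value by over 1.5 times. Fbn2 could not be fitted without that mouse. CFA mouse 72 lay nearer to CSA mice 01 and 02 (1.26 and 1.23) than CFA mice 71 and 74 did (1.46 to 1.51). Its distances from CFA mice 71 and 74 were 0.712 and 0.743.

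**Figure D1:**
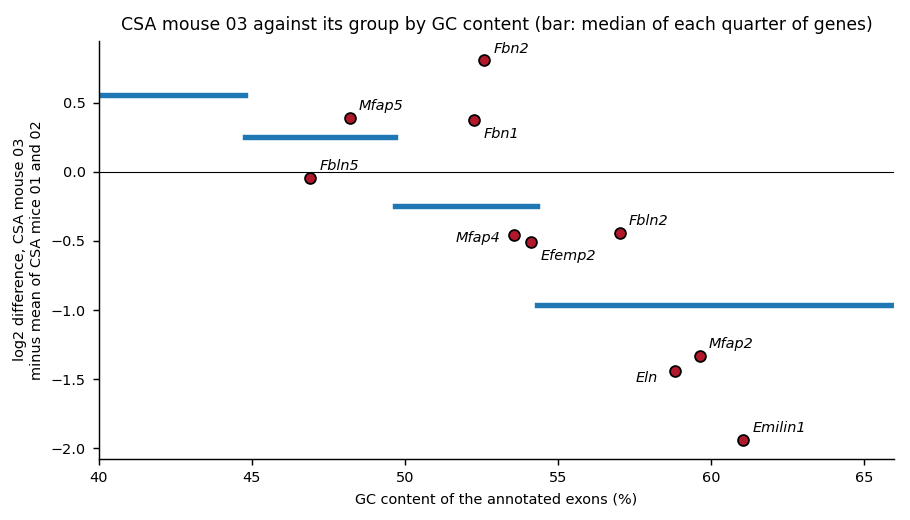
The x axis, labelled as annotated exons, gives the GC content of each gene's longest annotated transcript in percent. The y axis gives the log2 difference of CSA mouse 03 from the mean of CSA mice 01 and 02. Red points are the 10 genes and blue bars are the medians of 4 equal bins of genes by GC content. Eln, Mfap2 and Emilin1 lie furthest below 0, between −1.33 and −1.94.

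Ccn2, the targeted gene, was measured first. It stood at 710, 1108 and 480 FPKM in CFS mice 68, 69 and 70, at 436, 640 and 587 in CSS mice 54, 55 and 56, at 1013, 1105 and 564 in CFA mice 71, 72 and 74, and at 255, 331 and 399 in CSA mice 01, 02 and 03. The CSA mice lay below every CFA mouse, with a fold change of −1.41 ± 0.34 (adjusted p = 0.00622), whereas CSS and CFS overlapped (−0.40 ± 0.34, adjusted p = 1). The level of Ccn2 in whole aorta thus did not separate the 2 saline groups. In 25.1% of all tested features, every CSA mouse lay below every CFA mouse.

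Smooth muscle markers fell in CSA, and this bears on every level below, because fewer cells of a type and less RNA per cell cannot be told apart in whole tissue. All 8 markers (Acta2, Myh11, Cnn1, Tagln, Smtn, Lmod1, Myocd and Des) were lower in CSA than in CFA, and their summed level was 800 to 959 FPKM in CSA, 5532 to 8420 in CFA, 7706 to 8740 in CSS and 8202 to 10305 in CFS. Summed macrophage markers (10 genes) were 2368 to 2539 FPKM in CSA and 349 to 727 in CFA, and of the 9 that reached the filter without the CSA mice, 8 rose and 1, Mertk, fell. Summed neutrophil markers (10 genes) were 530 to 581 FPKM in CSA and 11.2 to 28.0 in CFA, where Ngp was at 0 in every mouse. Of the 9 tested, 6 reached the filter only through the CSA mice, with fewer than 3 other libraries at 1 FPKM, and the other 3 rose. T cell markers summed to 31.6 to 44.4 FPKM in CSA and 1.06 to 3.26 in CFA, and since all 8 reached the filter only through the CSA mice, no count is given for them. All marker counts here are to be set beside the 19.5% of all tested features that passed higher and the 21.2% that passed lower. Fibroblast markers (5 higher and 4 lower of 10) summed to 6235 to 7375 FPKM in CSA and 3718 to 4085 in CFA, and endothelial markers (1 higher and 3 lower of 8) to 138 to 174 and 224 to 505. Of the other lists, Ighm, the 1 B cell marker that reached the filter without the CSA mice, and 1 of 5 tested Schwann cell markers were higher, and 3 of 7 adipocyte and 5 of 5 erythrocyte markers were lower. Skeletal muscle markers passed in none of 4 tested, with Ckm and Myh4 at 0 in CSA, but their sum reached 163 FPKM in 1 CFS mouse and 263 in 1 CSS mouse, against at most 5.97 in the Ang II mice. The part of these markers in the results on elastic fibre genes was not tested.

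In CFS, the baseline group, elastin was the most abundant of the 10 transcripts on the FPKM scale, followed by Mfap4 and Fbln5, and these 3 did not overlap each other or the next gene. Eln stood at 555 ± 48.5 FPKM, Mfap4 at 220 ± 28.2 and Fbln5 at 160 ± 11.2. Fbln2 (58.6 ± 14.6), Emilin1 (45.8 ± 7.97), Efemp2 (45.2 ± 5.79) and Fbn1 (43.2 ± 2.44) followed, each overlapping its neighbour in the order. Mfap5 at 32.1 ± 3.03 FPKM and Mfap2 at 18.0 ± 4.13 lay below them without overlap. Fbn2 was at or near 0. The first 3 places were the same in CSS and CFA. In CSA, Mfap5 (102 ± 17.3 FPKM) took the third place and Fbln5 (74.7 ± 1.71) the fifth, with Mfap5 overlapping Fbln2 and Fbln2 overlapping Fbln5. Summed over the 10 genes, the level was 1106 to 1248 FPKM in CFS, 1476 to 1523 in CSS, 1662 to 3482 in CFA and 944 to 1752 in CSA. Eln made up 45.2% to 49.0% of the sum in CFS, 54.4% to 55.9% in CSS, 46.6% to 65.0% in CFA and 35.8% to 55.4% in CSA, the lowest share being that of CSA mouse 03.

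**Figure D2:**
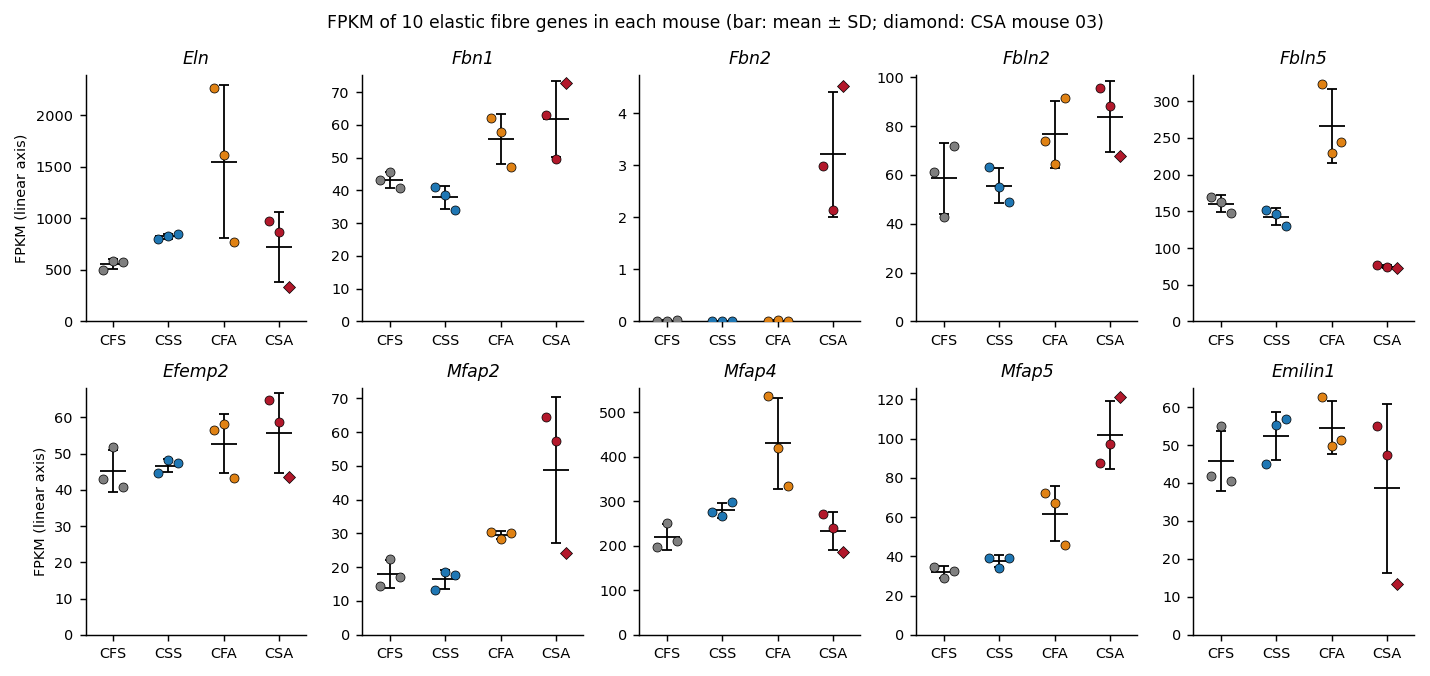
Each panel gives the FPKM of 1 gene on a linear axis in the 4 groups on the x axis; points are mice, the horizontal and vertical bars are the mean ± SD, and the diamond is CSA mouse 03. Fbln5 lies between 73.3 and 76.6 FPKM in CSA, below every other mouse, and Fbn2 is visible above 0 in CSA.

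With CSA set against CFA, which asks for the effect of SMC deletion of Ccn2 under Ang II, the members went in different directions. Fbln5 and Mfap4 fell, Mfap5 rose, and Fbn2 was present in CSA and close to absent in CFA. Leaving aside Fbn2, which reached the filter only through its level in CSA and is described below without a test, 1 of 9 genes passed higher and 2 passed lower. Over all tested features, 19.5% passed higher and 21.2% passed lower, so that the share among these genes was close to the background. Scaled to the recovered fragments, 25.2% passed higher and 17.0% lower. The median fold change of the 9 was 0.07, and that of all features was −0.04.

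Fbln5 encodes fibulin-5, an integrin-binding protein that brings tropoelastin to the microfibril. Its level was 324, 230 and 245 FPKM in CFA mice 71, 72 and 74, and 76.6, 74.2 and 73.3 in CSA mice 01, 02 and 03. In saline it was 170, 163 and 148 in CFS and 152, 146 and 130 in CSS. The 3 CSA mice lay below all other mice and within a narrow range, CSA mouse 03 included. Of all tested features, 25.1% had every CSA mouse below every CFA mouse. Under Ang II the genotype difference was −1.82 ± 0.14 (adjusted p = 4.87e-06), the only one of the 9 past the study's fold limit of 1.5 on the log2 scale in this comparison, against 8.27% of all features past it and lower. Fbln5 also fell from CSS to CSA by 0.93 ± 0.14 on the log2 scale (adjusted p = 0.000301), whereas from CFS to CFA the difference was 0.72 ± 0.14 in the other direction (unadjusted p = 0.000416, adjusted p = 0.106). The genotype difference under Ang II thus differed from that under saline by −1.65 ± 0.20 (adjusted p = 0.000253). Smooth muscle markers moved the same way between CFA and CSA, with a median of −2.99 over the 8, and their part in the fall of Fbln5 was not tested.

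Mfap4 encodes a microfibril-associated glycoprotein that binds elastin and fibrillin and is also an integrin ligand. It was measured at 538, 419 and 333 FPKM in CFA and at 271, 241 and 186 in CSA. The groups did not overlap, and 25.1% of all tested features were lower in CSA in this way. The saline levels were 198, 252 and 210 FPKM in CFS and 275, 267 and 298 in CSS, so that the CSA mice lay in the saline range or below it. Mfap4 fell by 0.88 ± 0.19 between CFA and CSA (adjusted p = 0.00414), and the interaction of genotype and treatment was −1.23 ± 0.28 (adjusted p = 0.00741). Between CSS and CSA the difference of −0.28 ± 0.19 did not pass (adjusted p = 0.262), and it was −0.13 without CSA mouse 03.

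Mfap5 encodes MAGP-2, the fibrillin-binding glycoprotein related to MAGP-1. It was at 34.7, 28.8 and 32.7 FPKM in CFS, 39.2, 33.9 and 39.2 in CSS, 72.2, 67.4 and 45.6 in CFA, and 87.6, 97.3 and 121 in CSA. Every CSA mouse exceeded every CFA mouse, as in 23.4% of all tested features, and every CFA mouse exceeded every saline mouse. Mfap5 rose by 0.74 ± 0.19 from CFA to CSA (adjusted p = 0.00864) and by 1.43 ± 0.19 from CSS to CSA (adjusted p = 9.83e-05). The call between CSA and CFA was lost when only those 2 groups entered the fit (adjusted p = 0.0622). The interaction for Mfap5 did not pass (0.52 ± 0.26, adjusted p = 0.183). It ranged from 0.31 to 0.64 with each mouse left out in turn and did not pass in any of these fits. Of the fibroblast markers, Col1a1, Col1a2, Col3a1, Lum and Ly6a also rose from CFA to CSA, by 0.76 to 1.82, whereas Dpt, Pi16, Dpep1 and Cd34 fell and Pdgfra did not pass. The part of these cells in the rise of Mfap5 was not tested.

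Fbn2, at chr18:58008623-58210487 on the minus strand, encodes fibrillin-2, the fibrillin of developing microfibrils. Its FPKM was 0, 0.0102 and 0.0166 in CFS, 0 in all 3 CSS mice, 0, 0.0225 and 0.00450 in CFA, and 2.97, 2.15 and 4.51 in CSA. With a gene length that turned these values into whole numbers, they correspond to 5 fragments in the CFS mice together, 0 in CSS, 6 in CFA and 1835 in CSA (633, 477 and 725). The pooled level in CSA was 345-fold that in CFA (exact 95% interval 158 to 943) and 351-fold that in CFS (150 to 1084), both intervals covering counting error only. The fold against CFA rested on CFA mouse 72, which held 5 of the 6 fragments, and was 1388 without it (exact 95% interval 249 to 54839) and 228 without CFA mouse 71 (105 to 623). The fold against CFS was 600.3 without CFS mouse 70 (166 to 4961) and 232 without CFS mouse 68 (99.3 to 716). Against CSS, where 3 fragments over the group were taken as the floor, it was at least 634-fold higher, or at least 399-fold without CSS mouse 56. On the log2(FPKM + 0.1) scale the difference from CFA was 4.87, a value that depends on the pseudocount and was 2.02 with a pseudocount of 1. No test is given for Fbn2, because no mouse outside CSA reached 1 FPKM and it entered the fit only through the group in which it was high. At 2.15 to 4.51 FPKM, Fbn2 remained well below Fbn1 in the same CSA mice. Summed macrophage, neutrophil, T cell, B cell, fibroblast and Schwann cell markers were likewise higher in each CSA mouse than in any CFA mouse. Of the fibroblast markers, 5 of 10 passed higher and 4 passed lower. The part of any of these cells in the level of Fbn2 was not tested.

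Elastin itself varied widely among the Ang II mice. Eln was at 2263, 1618 and 774 FPKM in CFA mice 71, 72 and 74 and at 970, 865 and 338 in CSA mice 01, 02 and 03. CFA mouse 74 lay below CSA mice 01 and 02, so the groups overlapped, and the difference of −1.11 ± 0.42 did not pass (95% interval −2.03 to −0.18, adjusted p = 0.0558). Without CFA mouse 74 the difference was −1.54 (adjusted p = 0.0112), and without CSA mouse 01 it was −1.39 (adjusted p = 0.0328). Without CSA mouse 03 it was −0.63 (adjusted p = 0.161). The call for Eln therefore rested on single mice of both groups.

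Mfap2 and Emilin1 depended on CSA mouse 03 as well. Mfap2, encoding MAGP-1, was at 30.4, 28.2 and 30.1 FPKM in CFA and at 64.5, 57.3 and 24.1 in CSA, where mouse 03 alone lay below the CFA mice. The difference of 0.60 ± 0.32 did not pass (adjusted p = 0.166) but was 1.04 without CSA mouse 03 (adjusted p = 0.00119). With each mouse left out in turn, the difference ranged from 0.33 to 1.04, with adjusted p up to 0.443. It passed in 3 of the 24 alternatives other than the fold limit. Emilin1, encoding an elastin-binding glycoprotein at the interface of elastin and microfibril, was at 62.6, 49.8 and 51.3 FPKM in CFA and at 55.1, 47.3 and 13.3 in CSA. Its difference was −0.73 ± 0.42 (adjusted p = 0.194), and −0.09 without CSA mouse 03 (adjusted p = 0.691). The range over all fits with 1 mouse left out was −1.11 to −0.09, with no call (lowest adjusted p = 0.0577).

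The other 3 genes did not pass between CSA and CFA and their intervals were narrower. Fbn1, encoding the fibrillin of adult microfibrils, was at 61.9, 57.7 and 47.3 FPKM in CFA and at 63.0, 49.6 and 72.7 in CSA (0.14 ± 0.16, 95% interval −0.21 to 0.50, and 0.02 without CSA mouse 03). Efemp2, encoding fibulin-4, which carries lysyl oxidase to tropoelastin, was at 56.6, 58.2 and 43.3 FPKM in CFA and at 64.9, 58.9 and 43.4 in CSA (0.07 ± 0.17, 95% interval −0.31 to 0.46, and 0.24 without CSA mouse 03). Fbln2, encoding fibulin-2, which binds fibrillin and elastin, was at 73.8, 64.7 and 91.4 FPKM in CFA and at 95.6, 88.3 and 67.7 in CSA (0.13 ± 0.22, 95% interval −0.35 to 0.61, and 0.28 without CSA mouse 03). The 2 groups overlapped for each of them.

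**Figure D3:**
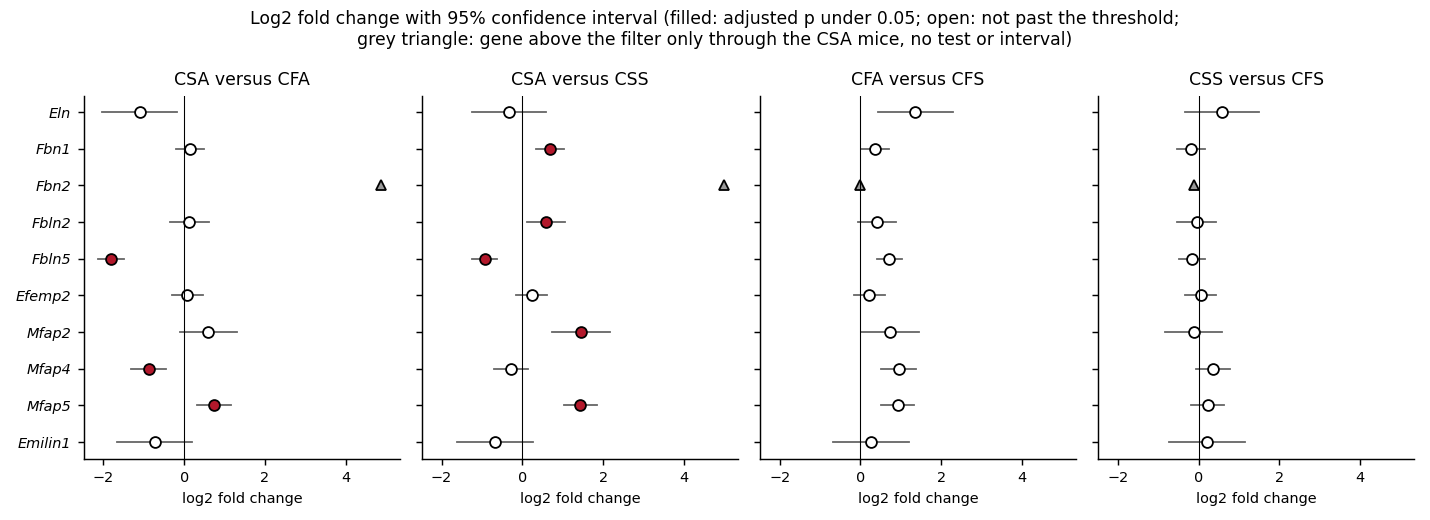
Points are log2 fold changes of the 10 genes on the x axis with 95% confidence intervals in 4 comparisons; filled circles passed at an adjusted p under 0.05, open circles did not, and the grey triangle is Fbn2, which has no test or interval. Fbln5 is lower in both comparisons of CSA, at −1.82 and −0.93, and no circle is filled in the 2 comparisons on the right.

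The effect of Ang II was examined separately in each genotype. Whether it differed between the genotypes is the interaction, which passed for Fbln5 and Mfap4 among the 9 genes and not for the others. In CCN2fl/fl mice (CFA versus CFS), none of the 9 genes passed after adjustment, against a background of 0.0341% of features passed. At an unadjusted p under 0.05 in the limma fit, 6 of 9 were higher and none was lower, where 5.61% of all features were higher by that measure. These 6 (Eln, Fbn1, Fbln5, Mfap2, Mfap4 and Mfap5) were also those whose CFA mice all lay above the CFS mice, as did 9.44% of all features. The differences were 1.35 ± 0.42 for Eln (adjusted p = 0.289), 0.95 ± 0.19 for Mfap4, 0.92 ± 0.19 for Mfap5 and 0.72 ± 0.14 for Fbln5 (adjusted p = 0.106 for each of these 3), 0.73 ± 0.32 for Mfap2 (adjusted p = 0.518) and 0.36 ± 0.16 for Fbn1 (adjusted p = 0.525). Eln ranged from 499 to 587 FPKM in CFS and from 774 to 2263 in CFA, and Mfap2 from 14.5 to 22.6 and from 28.2 to 30.4. Fbln2, Efemp2 and Emilin1 had differences between 0.22 and 0.40 with overlapping groups. Mfap4 and Mfap5 passed without CFA mouse 74 (adjusted p = 0.0241 and 0.0123) and also when CSA mouse 03, which is in neither group, was left out of the fit (adjusted p = 0.0470 and 0.0483). The median over the 9 genes was 0.72, and over all features −0.0012.

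In CCN2SMCΔ mice (CSA versus CSS), Fbn1, Fbln2, Mfap2 and Mfap5 rose and Fbln5 fell, that is 4 of 9 higher and 1 lower, against 22.3% and 23.9% of all features (28.1% and 18.5% scaled to the recovered fragments). Mfap2 rose by 1.45 ± 0.32 (adjusted p = 0.00340), from 13.2, 18.5 and 17.6 FPKM in CSS to 64.5, 57.3 and 24.1 in CSA, and every CSA mouse, mouse 03 included, lay above every CSS mouse. Of all tested features, 26.3% had every CSA mouse above every CSS mouse. Fbn1 rose by 0.69 ± 0.16 (adjusted p = 0.00442), from 41.0, 38.6 and 34.1 FPKM in CSS. Fbln2 rose by 0.58 ± 0.22 (adjusted p = 0.0450), from 63.1, 54.96 and 48.8 FPKM in CSS, and this call was lost with no filter on low values (adjusted p = 0.0740), with both eBayes settings off (adjusted p = 0.0546), without CSS mouse 54, 55 or 56, without CSA mouse 01 or 02, and without CFS mouse 68 or CFA mouse 71 (adjusted p from 0.0520 to 0.144). Eln did not pass (−0.33 ± 0.42, adjusted p = 0.545), and its difference turned to 0.15 without CSA mouse 03. Efemp2 (0.23 ± 0.17, adjusted p = 0.297) passed without CSA mouse 03, at 0.40 (adjusted p = 0.0374). Emilin1 did not pass (−0.68 ± 0.42, adjusted p = 0.217), and without CSA mouse 03 its difference was −0.030. CSA is shared by this comparison and that of CSA with CFA, so the values of a gene in the 2 are not independent.

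Under saline (CSS versus CFS), none of the 9 genes passed, against 0.0204% of all features, and none reached an unadjusted p of 0.05 in limma, as 6.30% of features did. Eln was at 499, 587 and 579 FPKM in CFS and at 803, 827 and 851 in CSS, and the CSS mice of Eln and Mfap4 lay above all CFS mice, as did those of 11.1% of all features. The difference was 0.58 ± 0.42 for Eln (95% interval −0.35 to 1.505, adjusted p = 0.991, and 0.0502 with only the 2 groups in the fit) and 0.35 ± 0.19 for Mfap4 (95% interval −0.08 to 0.78, adjusted p = 0.9003). The replicate spread of Eln within these 2 groups was small (SD 48.5 and 24.2 FPKM), while the error of the fit also takes in the spread of the Ang II groups. The other 7 genes differed by between −0.19 and 0.22.

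The genotype difference under Ang II was then tested against that under saline. Among the 9 genes, none passed higher and 2, Fbln5 and Mfap4, passed lower, where 12.8% and 13.7% of all features passed (16.3% and 11.2% scaled to the recovered fragments). Eln had the most negative interaction, −1.69 ± 0.59, with an adjusted p of 0.0587 that became 0.0152 without CFA mouse 74 and 0.0369 without CSA mouse 01. Without CSA mouse 03 it was −1.21 (adjusted p = 0.0697). For Mfap2 it was 0.72 ± 0.45 (adjusted p = 0.281), and 1.16 without CSA mouse 03 (adjusted p = 0.00538). The interactions of 4 genes that passed neither with nor without CSA mouse 03 moved by over 1.5 times without it, from −0.93 to −0.29 for Emilin1, from 0.33 to 0.21 for Fbn1, from 0.18 to 0.33 for Fbln2 and from 0.02 to 0.19 for Efemp2.

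Related genes were also compared within each mouse, as log2 ratios of FPKM. The ratio of Fbln2 to Fbln5 was −1.47, −1.92 and −1.05 in CFS, −1.27, −1.41 and −1.41 in CSS, −2.13, −1.83 and −1.42 in CFA and 0.32, 0.25 and −0.11 in CSA. In CSA the 2 fibulins were thus at similar levels, whereas Fbln5 exceeded Fbln2 in each of the other 9 mice. The difference of this ratio was 1.95 between CSA and CFA and 1.52 between CSA and CSS. The ratio of Efemp2 to Fbln5 was −2.51, −1.98 and −2.50 in CFA and −0.24, −0.33 and −0.75 in CSA, a difference of 1.89, and 1.17 between CSA and CSS. Both ratios have Fbln5 as denominator. Between CSA and CFA, Fbln5 differed by −1.82, Fbln2 by 0.13 and Efemp2 by 0.07. The ratio differences there mostly restate the fall of Fbln5 and are not separate results. The ratio of Fbn2 to Fbn1 was −9.28, −8.88 and −8.82 in CFA and −4.36, −4.47 and −3.98 in CSA, a difference of 4.72 on a scale whose lower end is set by the pseudocount, and the difference between CSA and CSS was 4.30. With a pseudocount of 1 these 2 differences were 1.88 and 1.36. No test is given for the ratio of Fbn2. The differences of the 2 ratios to Fbln5 between CSA and CFA and between CSA and CSS had groups without overlap, with a two-sided exact permutation p of 0.1 each, the smallest that 3 mice against 3 allow, and 0.3 after adjustment over the 12 differences tested, so that none could pass. The ratio of Mfap5 to Mfap2 was 1.24, 1.25 and 0.60 in CFA and 0.44, 0.76 and 2.32 in CSA, and overlapped in all 4 comparisons. Its difference between CSA and CFA was 0.14 (exact permutation p = 0.9) and changed to −0.43 without CSA mouse 03.

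**Figure D4:**
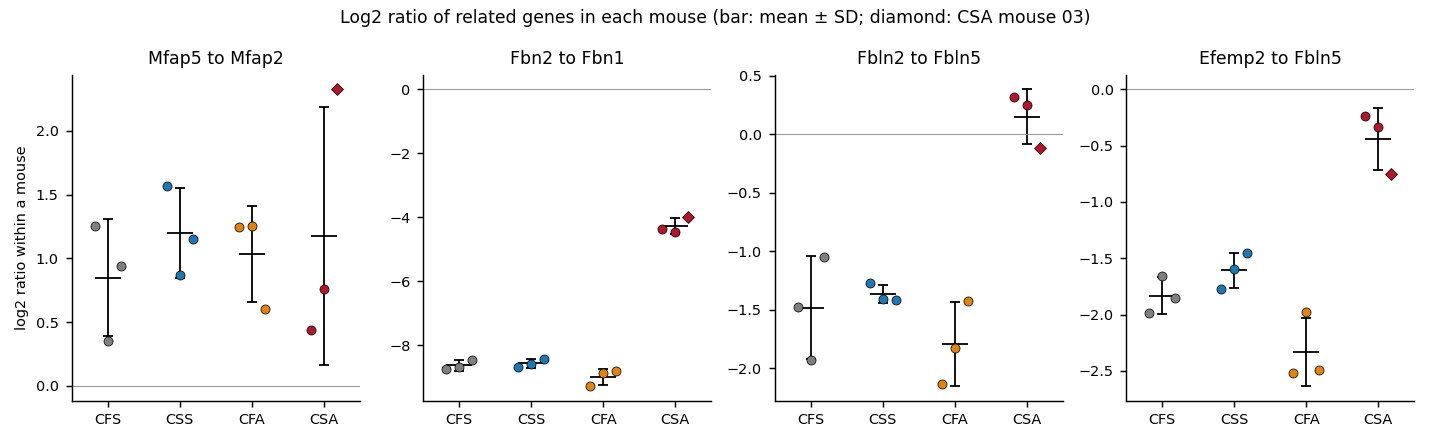
Each panel gives the log2 ratio of 2 related genes within a mouse on the y axis by group on the x axis; points are mice, bars are the mean ± SD, and the diamond is CSA mouse 03. The ratios of Fbln2 and of Efemp2 to Fbln5 are higher in the 3 CSA mice than in any other, between −0.11 and 0.32 for Fbln2.

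The profile of each gene over the 12 libraries was compared by the root mean square difference of centred log2 values. The member nearest to Eln was Mfap4, at 0.337, and nearest to Fbln5 was also Mfap4, at 0.474. Fbn1 and Efemp2 were nearest to each other, at 0.289, and Fbn1 was the member nearest to Fbln2 (0.329) and to Mfap5 (0.447). Mfap5 was nearest to Mfap2, at 0.518. Outside the 10 genes, Phf19, Scx and Sorcs2 had the profiles most like Eln, at 0.336, 0.356 and 0.384. For each of the 10 a gene outside them was nearer than the nearest member, at 0.0994 to 0.336 against 0.289 to 1.62. The value of 1.62 is that of Fbn2, which reached the filter only through the CSA mice. The outside gene was the nearest of all other tested features, whereas the nearest member came from the few remaining members. This comparison therefore cannot show whether the members share a profile. For Eln the values were close, at 0.336 for Phf19 and 0.337 for Mfap4.

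Around the 10 genes, 63 genes of the elastic fibre pathway in 8 lists were examined, of which 57 were tested. Mmp12, Elane and Prtn3 reached the filter only through the CSA mice and are left out of the counts. Of the other 54, 13 passed higher between CSA and CFA and 25 lower, to be set beside the 19.5% and 21.2% of all features. Without CSA mouse 03 these 38 genes also passed, and 2 more passed higher, but the differences of Loxl1, Ltbp3, Adamtsl4 and Cst3 shrank by over 1.5 times, those of Adamtsl4 and Cst3 from −0.92 to −0.40 and from −0.74 to −0.46. None of the 54 passed in CFA versus CFS or in CSS versus CFS. The lists were made with earlier results on these samples known, so their counts are a description.

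The lysyl oxidases, which crosslink tropoelastin, differed among themselves. Lox was at 187, 174 and 112 FPKM in CFA and 293, 302 and 513 in CSA and rose by 1.21 ± 0.25 (adjusted p = 0.00235). Loxl3 rose (0.55 ± 0.18), a call lost with no filter, with only the 2 groups in the fit, and without CFA mouse 71 or 74 or CSA mouse 01 or 02 (adjusted p from 0.0554 to 0.132). Loxl1, the lysyl oxidase tied to elastin deposition, fell by 1.08 ± 0.32 (adjusted p = 0.0187). Loxl1 was at 122, 101 and 47.1 FPKM in CSA, the lowest value in mouse 03, without which the difference was −0.67 (adjusted p = 0.0240), and its call was lost without CFA mouse 71 or 72 (adjusted p = 0.0685 and 0.0621) and with only the 2 groups in the fit (adjusted p = 0.0900). Loxl2 and Loxl4 did not pass, although Loxl2 did without CSA mouse 01 (adjusted p = 0.0476) and Loxl4 without CFA mouse 72 (adjusted p = 0.0332), and both with scaling to the recovered fragments (adjusted p = 0.0474 and 0.0319). The list median was 0.51.

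Latent TGF-β binding proteins anchor latent TGF-β to microfibrils, and Ltbp4 helps fibulin-5 to assemble elastin. Of the 4, 1 passed higher and 3 passed lower, where 19.5% and 21.2% of all features did. Ltbp4 stood at 329, 242 and 388 FPKM in CFA and 49.6, 38.5 and 19.5 in CSA, and fell by 3.23 ± 0.30 (adjusted p = 1.36e-05). Ltbp1 fell by 2.42 ± 0.14. Ltbp3 had a difference of −1.05, which was −0.66 without CSA mouse 03 and did not pass with only the 2 groups in the fit (adjusted p = 0.0615). Ltbp2, which lies on fibrillin microfibrils and competes for binding to fibulin-5, rose by 1.84 ± 0.32 (adjusted p = 0.000817), from 26.2, 31.4 and 11.6 FPKM to 93.4, 84.1 and 56.1. In Ltbp4, Ltbp1 and Ltbp3, as in Fbln5, all CSA mice were below all mice of the other 3 groups. The same held for smooth muscle markers such as Acta2 and Myh11. The share of all features with this pattern was not computed.

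Of the other fibulins, emilins and multimerins, 1 of 7 tested rose and 3 fell, where 19.5% of all features rose and 21.2% fell. Fbln7, encoding fibulin-7, fell by 3.44 ± 0.25, from 34.4, 21.3 and 31.7 FPKM in CFA to 2.69, 3.18 and 1.92 in CSA. Mmrn2, an endothelial multimerin, fell by 1.95 ± 0.55, a call lost without CFA mouse 74 (adjusted p = 0.0676), and Emilin2 rose by 1.67 ± 0.22. Among the ADAMTS and ADAMTS-like proteins that bind microfibrils, 5 of 7 tested fell and none rose, the largest changes being Adamtsl5 (−2.22 ± 0.26) and Adamtsl2 (−1.89 ± 0.31).

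Of the 12 enzymes listed as able to cleave elastin, 7 reached the filter without the CSA mice. Of these 7, 5 rose, 2 did not pass and none fell, with a median of 0.90, where 19.5% of all features rose and 21.2% fell. Ctss, encoding the macrophage protease cathepsin S, rose by 4.60 ± 0.36, from 21.0, 61.3 and 19.3 FPKM in CFA to 674, 669 and 796 in CSA. Mmp9, encoding gelatinase B, rose by 2.52 ± 0.26 (adjusted p = 2.42e-05), from 2.33, 5.09 and 2.80 FPKM to 19.2, 20.8 and 16.9. Elane, encoding neutrophil elastase, was at most 0.144 FPKM in CFA and at 2.05, 1.15 and 2.12 in CSA, and has no test. Between CSA and CSS all 7 rose, where 22.3% of all features did. Summed macrophage and neutrophil markers were higher in the same mice, and their part in these values was not tested.

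Inhibitors of these enzymes divided, with 2 of 6 higher and 4 lower, against 19.5% and 21.2% of all features. Timp1 rose by 3.47 ± 0.55, from 29.9, 110 and 19.4 FPKM in CFA to 494, 677 and 260 in CSA, and Slpi, encoding a secreted inhibitor of neutrophil elastase, rose by 3.20 ± 0.59. Timp4 fell by 3.80 ± 0.31, from 7.66, 6.76 and 12.5 FPKM to 0.535, 0.888 and 0.299, and Timp3, the inhibitor held in the matrix, fell by 1.46 ± 0.13.

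Integrins that bind fibrillin or fibulin-5 passed lower in 5 of 8 tested and higher in 1, against 21.2% and 19.5% of all features. Itga8 was at 274, 239 and 276 FPKM in CFA and 15.6, 16.1 and 21.0 in CSA (−3.90 ± 0.16, adjusted p = 1.40e-07), and Itga9, which binds fibulin-5, was at 124, 108 and 90.4 and at 17.9, 16.2 and 16.2 (−2.66 ± 0.13). Itga4, carried mainly by leukocytes, was the one that rose (1.43 ± 0.23). Among matrix partners and assembly helpers, 1 of 10 rose and 4 fell, to be set beside the same shares of all features. Atp7a, the copper transporter that supplies lysyl oxidases, rose by 0.78 ± 0.16, and the largest falls were those of Hspg2, encoding perlecan (−1.73 ± 0.29), and Slc2a10, whose loss causes arterial tortuosity (−1.07 ± 0.10).

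**Figure D5:**
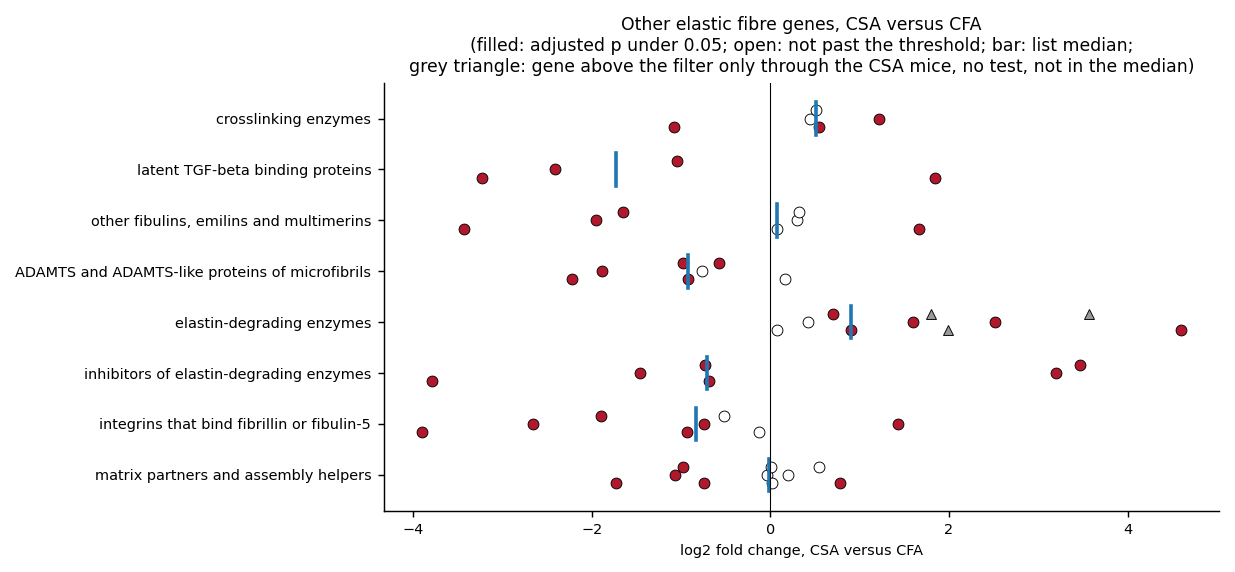
Each point is the log2 fold change, CSA versus CFA, of a tested gene on the x axis, in rows for the 8 lists; filled circles passed at an adjusted p under 0.05, open circles did not, grey triangles are genes above the filter only through the CSA mice, and blue bars are list medians without the triangles. Latent TGF-β binding proteins have a median of −1.73 and elastin-degrading enzymes one of 0.90.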

How the data were processed

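Poly(A) RNA of 12 abdominal aortas, 3 per group, was sequenced in pairs. Groups were taken from the sample labels. Per gene and per mouse the authors deposited FPKM, without pooling, and 0 columns were left unused. The submitters' processing notes list HISAT2 2.0.5, StringTie 1.3.3b, featureCounts 1.5.0-p3 and the build mm10. Differentially expressed genes were called by the authors with DEG-Seq, which needs counts. Here limma was applied to log2 values of the deposited FPKM, and not to the recovered fragments.

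After addition of 0.1 and log2 transformation, values were fitted by limma 3.58.1 under R 4.3.3 (eBayes with trend and robust settings, 1 coefficient per group over 12 libraries), for features at 1 FPKM or more in 3 or more libraries, with Benjamini-Hochberg adjustment over 14676 features. Genes with fewer than 3 libraries outside CSA at 1 FPKM reached this filter only through the CSA mice and are given without test or count. The script was tested on simulated data. Positions, symbols and lengths came from GENCODE M21 on GRCm38. With these lengths 98.0% to 98.5% of values under 100 fragments came out whole within 0.05 fragments. Fbn2 needed a gene length smaller by a factor of 1.26. Counting intervals are exact at 95%, cover counting error only, and the floor is 3 fragments. Ratios were compared by two-sided exact permutation tests. Python 3.11.15 with scipy 1.17.1 and matplotlib 3.10.9 was used for counts, ratios and plots.

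The members and lists were chosen with earlier results of these data known. The text names the 10 genes, Ccn2, at most 2 genes per direction with the largest change from each pathway list among those that passed between CSA and CFA (not those that reached the filter only through CSA), and the nearest profiles. Ltbp3, Loxl2, Loxl4, Elane, Mmp12, Prtn3, Adamtsl4, Cst3 and single markers were named after their values were seen. Alternatives were a pseudocount of 1, no filter, a mean FPKM of at least 5, 4 other scalings (equal totals, median of ratios, upper quartile and quantile), array weights, eBayes with both its settings off, only the groups compared, the fold limit of 1.5, and leaving out each mouse. Removal of the GC trend, scaling to the recovered fragments and the Fbn2 folds without each mouse were added after the data were seen.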

Additional observations from a re-analysis of the deposited data

Results flagged for a closer look

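For 2 genes the genotype difference under Ang II differed from that under saline by the interaction term of the limma fit. Fbln5 differed by −1.65 and Mfap4 by −1.23, with lower levels in CSA than in CFA and, under saline, differences of −0.17 and 0.35. Under the fold limit of 1.5 Fbln5 passed and Mfap4 did not. In the other 23 alternatives for which the interaction could be fitted, both passed, with adjusted p up to 0.00129 and 0.0228.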

How the results depend on the processing

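In the 24 alternatives other than the fold limit, Fbln5 and Mfap4 fell between CSA and CFA, Fbln5 by 1.66 to 1.96 and Mfap4 by 0.70 to 1.05, and Fbln5 fell between CSA and CSS. With the fold limit, of these 3 calls that of Fbln5 between CSA and CFA passed. Of 1071 values recomputed for the 9 genes without Fbn2, 1018 kept their direction and side of the threshold, 25 passed newly, 10 lost the call and 18 changed sign. Of 668 values of named genes outside the 10, 653 did, 4 passed newly and 11 lost the call. Eln passed between CSA and CFA with upper-quartile scaling (−1.14, adjusted p = 0.0450) and array weights (−1.01, adjusted p = 0.00801). Without Fbn2, the genes higher in CSA than in CFA numbered 1, or 2 with array weights or with the GC trend removed, 0 with only the 2 groups in the fit and 0 with the fold limit of 1.5. The genes lower numbered 2, or 3 with upper-quartile scaling or array weights and 1 with the fold limit. In CFA versus CFS, 0 were higher, or 5 with array weights, where 2.29% of all features were higher. Array weights also raised the shares of all features elsewhere, to 28.2% higher and 29.1% lower in CSA versus CFA. These shares were 30.0% and 32.0% in CSA versus CSS, and 20.6% and 22.6% in the interaction. In CSA versus CSS, 4 were higher, or 3 with no filter or with both eBayes settings off, 5 with array weights or the GC trend removed, and 0 with the fold limit, and 1 was lower, or 0 with the fold limit. In the interaction, 0 were higher, or 1 with array weights or the GC trend removed, and 2 were lower, or 3 with array weights and 1 with the fold limit. Leaving out 1 mouse gave 1 to 2 higher and 2 to 3 lower in CSA versus CFA, 0 to 2 higher in CFA versus CFS, 3 to 5 higher in CSA versus CSS, and 0 to 1 higher and 2 to 3 lower in the interaction.

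Signs that changed belonged to values that did not pass. With array weights Fbn1 between CSA and CFA was −0.11 and Eln between CSA and CSS was 0.095. With the GC trend removed Eln between CSA and CSS was 0.14 and Fbn2 between CFA and CFS 0.00398. Fbn2 between CFA and CFS was 5.42e-05 with a pseudocount of 1, 0.001005 with upper-quartile scaling and 9.20e-05 with scaling to the recovered fragments. Fbln2 between CSS and CFS was 0.00939 with equal totals, and Efemp2 in the interaction was −0.00852 with upper-quartile scaling. The ratio of Mfap5 to Mfap2 between CSA and CSS, −0.02, was 0.00429 with a pseudocount of 1. With 1 mouse left out in turn, values ranged for Efemp2 in CSA versus CFA from −0.062 to 0.24, Fbln2 in CSS versus CFS from −0.26 to 0.11, Efemp2 in CSS versus CFS from −0.014 to 0.16, Mfap2 in CSS versus CFS from −0.27 to 0.049, Fbn2 in CFA versus CFS from −0.089 to 0.057, Eln in CSA versus CSS from −0.61 to 0.15, Efemp2 in interaction from −0.12 to 0.19, the ratio Mfap5 to Mfap2 in CSA versus CFA from −0.43 to 0.51, the ratio Mfap5 to Mfap2 in CFA versus CFS from −0.065 to 0.40, the ratio Mfap5 to Mfap2 in CSA versus CSS from −0.60 to 0.35, the ratio Fbn2 to Fbn1 in CSS versus CFS from −0.00318 to 0.16 and for the ratio Fbln2 to Fbln5 in CSS versus CFS from −0.11 to 0.33. The causes were not tested. Fbn2 could not be fitted when a CSA mouse was left out or at a mean FPKM of at least 5, since it then missed the filter. No paired analysis was possible because the mouse numbers of the groups are not shared. Of the 10 genes, depth limits Fbn2, whose levels outside CSA lay at or near the floor of 3 fragments.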
